A study of Mus musculus with 8 samples.

Results

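The imprinted Igf2 and Kcnq1 cluster of distal mouse chromosome 7 was taken as chr7:149600000-151000000 (mm9, 1.4 Mb), and 9 protein-coding genes of it were described (Igf2, Ins2, Ascl2, Cd81, Tssc4, Kcnq1, Cdkn1c, Slc22a18 and Phlda2) of 22367 protein-coding genes annotated in the genome. The cluster was chosen from measured values of these same libraries, because Igf2 lies under the highest-scoring H3.3-HA peak of Hira-null cells at day 15 that no WT day 15 peak overlaps. That peak had a score of 1945.55, and the next such peak, on chromosome 1, had 1865.55. The Hira-null and WT values at Igf2 on day 15 are therefore a description and carry no test. A peak was counted for a gene when it overlapped the stretch from 10 kb upstream of the gene's start to 3 kb past its end by at least 1 bp.

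The study asked where the histone variant H3.3 lies in mouse embryonic stem cells (mESCs) and in their differentiated progeny when the chaperone HIRA is absent. H3.3-HA peaks were available for 4 conditions, with 1 ChIP library each: Hira-null day 15, WT day 15, Hira-null day 0 and WT day 0. Hira-null cells were Clone 104, a line that is 1 clone, and WT cells were the W9.5 line. Both lines carried the HA-tagged H3.3, were undifferentiated at day 0, and at day 15 had passed through hanging-drop embryoid bodies towards cardiomyocytes, as a mixed culture with no sorting described. Clone and genotype cannot be told apart, and with 1 library per condition no difference below has a replicate check. In bulk chromatin, fewer cells with H3.3 at a site and less H3.3 per cell cannot be told apart, and the peaks were not assigned to a parental allele.

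H3.3 replaces the canonical histone H3 outside DNA replication, with HIRA placing it at active genes and regulatory elements and the ATRX-DAXX pair placing it at repeats and other silent chromatin. In the cluster, genes are expressed mainly from the maternal or the paternal chromosome. Igf2, a fetal growth factor gene, is expressed from the paternal copy and the non-coding RNA gene H19 from the maternal copy, under a control region upstream of H19 that binds the insulator protein CTCF where it is unmethylated. The Kcnq1 side is governed by a second control region at the start of the paternal antisense RNA Kcnq1ot1, which silences Cdkn1c, Phlda2, Slc22a18, Ascl2 and other neighbours on that chromosome.

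Sequences of the control region upstream of H19 are shown first, because peaks of Hira-null cells lay over it at both days. The 5 kb upstream of the H19 start (chr7:149764049-149769048) held 3 matches to CGNGGNGGC, the core of the CTCF site, searched on both strands. Each is printed below on the minus strand, the strand of H19 and Igf2, 5′ to 3′ from the NCBIM37 (mm9) assembly, with the core in capitals.
chr7:149766201-149766239: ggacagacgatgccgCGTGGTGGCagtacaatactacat
chr7:149766656-149766694: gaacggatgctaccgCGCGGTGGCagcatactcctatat
chr7:149767926-149767964: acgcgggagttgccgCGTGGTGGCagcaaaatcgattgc
The first and the second core lay under a Hira-null day 0 peak, and the third (chr7:149767941-149767949) formed the last bases of the Hira-null day 15 peak. All 3 stretches occurred at 1 place in the genome. The same core was present in 9.86% of 32851 RefSeq promoters of 300 bases (GRCm38.p6), in 3.22% of stretches of 815 bp centred on Hira-null day 15 peaks, and in 4.91% of stretches of 961 bp centred on Hira-null day 0 peaks. A match describes the letters and is not a measurement of CTCF.

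The next sequences show stretches under and outside Hira-null day 15 peaks, with each CG dinucleotide in capitals, since CG is the target of the methylation that marks the alleles. The first pair is on the minus strand and lay wholly under Hira-null day 15 peaks. It consists of the 250 bases before the farthest upstream Igf2 start, located by an exact match of the RefSeq promoter (GRCm38.p6) to mm9, and the centre of the highest-scoring peak upstream of Igf2.
chr7:149852722-149852971: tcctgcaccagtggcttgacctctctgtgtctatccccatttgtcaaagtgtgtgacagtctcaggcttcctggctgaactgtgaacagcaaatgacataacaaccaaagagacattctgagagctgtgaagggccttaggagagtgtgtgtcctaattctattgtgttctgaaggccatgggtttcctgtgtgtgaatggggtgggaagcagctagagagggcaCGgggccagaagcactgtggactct
chr7:149854596-149854895: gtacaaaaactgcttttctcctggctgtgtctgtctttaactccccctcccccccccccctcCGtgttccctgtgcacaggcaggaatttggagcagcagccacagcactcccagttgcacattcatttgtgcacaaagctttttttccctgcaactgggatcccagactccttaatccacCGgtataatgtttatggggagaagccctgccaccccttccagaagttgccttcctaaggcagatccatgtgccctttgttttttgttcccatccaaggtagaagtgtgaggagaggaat
The next is the centre, on the plus strand, of the stretch inside Kcnq1 that lay under a peak of all 4 lists. This stretch was picked for printing after its values were seen.
chr7:150414736-150415035: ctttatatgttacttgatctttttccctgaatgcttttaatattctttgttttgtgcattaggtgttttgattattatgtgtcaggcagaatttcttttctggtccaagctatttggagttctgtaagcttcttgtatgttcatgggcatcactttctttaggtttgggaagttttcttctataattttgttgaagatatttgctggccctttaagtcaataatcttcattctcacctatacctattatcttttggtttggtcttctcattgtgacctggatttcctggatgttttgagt
The last is the 250 bases before the Kcnq1ot1 start on the minus strand, also located by its RefSeq promoter, over which no list had a peak.
chr7:150482453-150482702: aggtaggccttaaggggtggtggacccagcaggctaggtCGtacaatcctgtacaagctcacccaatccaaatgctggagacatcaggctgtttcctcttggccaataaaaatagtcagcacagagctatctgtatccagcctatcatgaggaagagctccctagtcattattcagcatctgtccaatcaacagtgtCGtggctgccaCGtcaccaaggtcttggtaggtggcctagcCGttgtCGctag
The Kcnq1ot1 stretch held 5 CG in 250 bases, the Igf2 stretches 1 in 250 and 2 in 300, and the Kcnq1 stretch 0 in 300. The whole peak upstream of Igf2 held 2.41 CpG per 100 bp, so its printed centre does not stand for the peak.

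The deposited peak lists differed in length, with 7332 peaks for Hira-null day 15, 27272 for WT day 15, 17706 for Hira-null day 0 and 22730 for WT day 0, so the counts of cluster peaks and of genes with a peak are given beside those of the whole list or of all protein-coding genes. The score is the peak caller's -10 × log10 of the p-value, which grows with sequencing depth, and depth was unknown. Its median was 91.7, 86.7, 122 and 80.3 in these lists, in the same order, and the lowest score was 50 in each. At day 15 the fibroblast and smooth muscle markers Col1a1, Col3a1, Fn1, Vim, Acta2 and Tagln moved with genotype, as peaks covered 41574 bp of their windows in Hira-null cells (6 of 6 genes) and 9096 bp in WT cells (5 of 6, Tagln at 0). Of 8 cardiomyocyte markers, 2 had a peak in Hira-null cells and 3 in WT cells, and Myh6, Myh7, Tnnt2, Actc1 and Nkx2-5 were at 0 in both. Endoderm markers went the other way, with 825 bp covered in Hira-null day 15 (1 of 7 genes) and 4533 bp in WT day 15 (5 of 7). Of 7 pluripotency markers, 1 had a peak in Hira-null day 15, 2 in WT day 15, 4 in Hira-null day 0 and 7 in WT day 0. Of all protein-coding genes, 15.2%, 39.4%, 20.3% and 35.4% had a peak in the same order. When WT day 15 was held to its 7332 highest-scoring peaks, the lowest score was 126.16. Of the endoderm genes only Sox17 had a WT day 15 peak above that score. Fn1, Vim, Gata4 and Ryr2 of the other markers also did. The part of cell composition in the values below was not tested.

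The cluster held 26 peaks in Hira-null day 15, 22 in WT day 15, 11 in Hira-null day 0 and 9 in WT day 0. These peaks covered 41.7 kb in Hira-null day 15, 23.4 kb in WT day 15, 16.3 kb in Hira-null day 0 and 12.2 kb in WT day 0. Hira-null day 15 thus had the most cluster peaks although its whole list was the shortest. Peak density in the cluster was 18.6 per Mb in Hira-null day 15, against 2.76 per Mb over the genome and 3.08 per Mb over chromosome 7. In WT day 15 it was 15.7 per Mb, against 10.3 over the genome and 7.59 over chromosome 7. In Hira-null day 0 it was 7.86 per Mb, against 6.67 over the genome, and in WT day 0 6.43 per Mb, against 8.56. The cluster density was thus 6.72 times that of the genome in Hira-null day 15, 1.53 times in WT day 15, 1.18 times in Hira-null day 0 and 0.751 times in WT day 0. The cluster was chosen on a Hira-null day 15 peak that WT day 15 lacks. That peak and its neighbours are counted here, so nothing is read from the day 15 counts and densities.

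Cluster peaks differed in width and score. Cluster peaks were 666 to 8240 bp wide in Hira-null day 15 (median 965 bp), 640 to 1644 bp in WT day 15 (median 1014 bp), 961 to 2884 bp in Hira-null day 0 (median 1034 bp) and 735 to 2220 bp in WT day 0 (median 1162 bp). Their highest score was 1945.55 in Hira-null day 15, 252.59 in WT day 15, 444.35 in Hira-null day 0 and 118.78 in WT day 0. The lowest cluster scores were 53.69, 50.44, 53.76 and 57.63 in the same order. The 90th percentile of the score in the whole list was 332, 208, 384 and 179. In Hira-null day 15, 4 of the 26 peaks belonged to the top 10% of the whole list by score, against 1 of 22 in WT day 15, 1 of 11 in Hira-null day 0 and 0 of 9 in WT day 0. The Hira-null day 15 count includes peaks of the Igf2 window. The cluster was chosen on its highest-scoring Hira-null day 15 peak, so nothing is read from the upper end of that list.

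**Figure D1:**
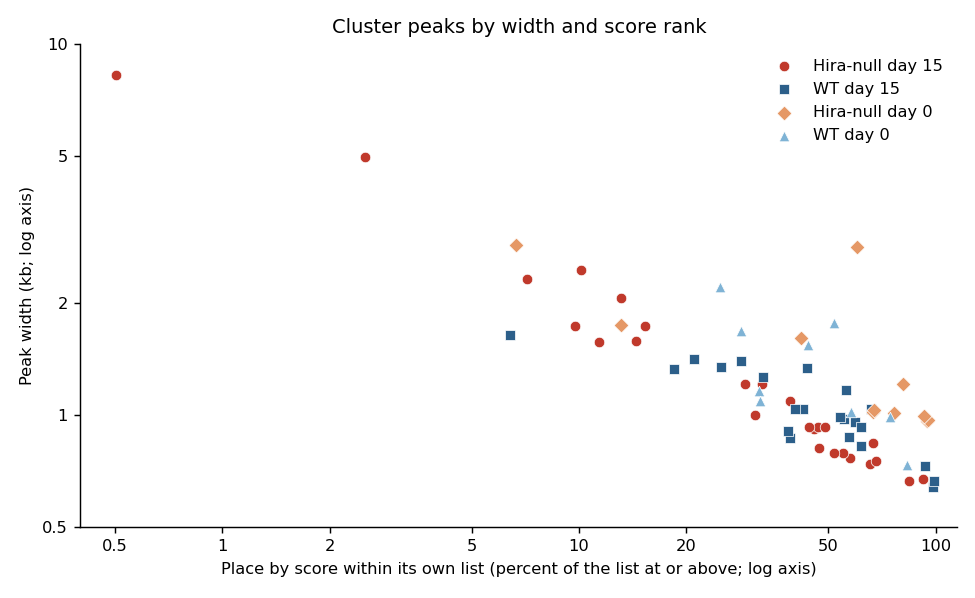
Width of each cluster peak in kb against its place by score within its own list, both on log axes, for the 4 lists. The Igf2 peak of 8.24 kb stands at 0.505% of the Hira-null day 15 list and the widest Kcnq1 peak of 4.95 kb at 2.52%.

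Of the 9 members, 6 had a peak in Hira-null day 15 (Igf2, Cd81, Tssc4, Kcnq1, Cdkn1c and Slc22a18), beside 15.2% of all protein-coding genes in that list. In WT day 15, 2 members had a peak (Kcnq1 and Phlda2), beside 39.4% of all protein-coding genes. In Hira-null day 0 only Kcnq1 of the 9 had a peak, beside 20.3% of all protein-coding genes, and in WT day 0 Cd81, Tssc4 and Kcnq1 did, beside 35.4%. At day 15, 5 members had a Hira-null peak and no WT peak, beside 4.10% of all protein-coding genes, and 1 (Phlda2) had a WT peak and no Hira-null peak, beside 28.3%. At day 0 the same counts were 0 members, beside 6.80%, and 2 members (Cd81 and Tssc4), beside 21.9%. The members were chosen on the Hira-null to WT contrast of day 15, so nothing is read from those day 15 counts. The 5 members are not separate observations either, because Cd81 and Tssc4 share 1 peak and Cdkn1c and Slc22a18 share another.

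**Figure D2:**
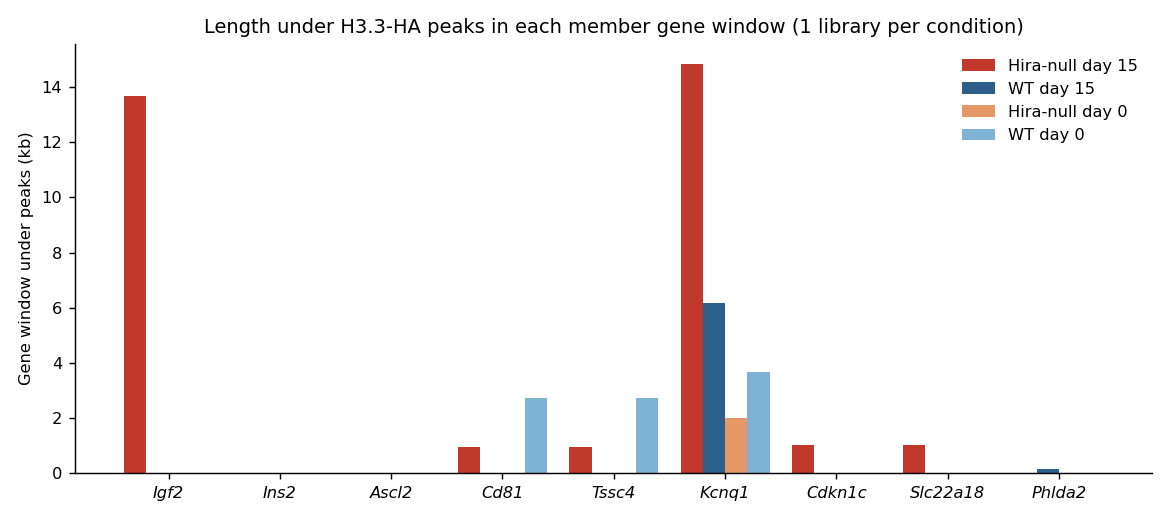
Length in kb under peaks in the window of each member gene, as bars for Hira-null day 15, WT day 15, Hira-null day 0 and WT day 0, with 1 library each and therefore no error bar. Igf2 has 13.7 kb in Hira-null day 15 and 0 in the other lists, and Kcnq1 has values in all 4.

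Among the growth factor genes, Igf2 (ENSMUSG00000048583.9, chr7:149836673-149852721, minus strand) had 5 peaks in Hira-null day 15 and 0 in each of WT day 15, Hira-null day 0 and WT day 0. The 5 peaks covered 13.7 kb, or 47.1%, of its 29.0 kb window. That placed Igf2 at rank 20 of 22367 protein-coding genes by length under Hira-null day 15 peaks. No 32-base word of the peak over its farthest upstream start occurred elsewhere in the genome, and at most 6.14% of the words of the other Igf2 peaks did.

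The widest Igf2 peak, chr7:149833173-149841412, had a width of 8240 bp and a score of 1945.55, the 37th highest score and the 24th greatest width of 7332 Hira-null day 15 peaks. It covered the end of the gene rather than a start. Of its length 4740 bp lay inside Igf2, with 383 bp of coding exon and 3051 bp of UTR exon, and 3500 bp lay past the gene end. It also covered Mir483, a microRNA gene within Igf2.

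The remaining 4 peaks of the window stood around and upstream of the farthest upstream Igf2 start. The peak at chr7:149851626-149853368 (1743 bp, score 338.95) covered that start at 149852721 and all 300 bases of its RefSeq promoter. The peak at chr7:149853582-149855908 (2327 bp, score 418.32) began 0.861 kb upstream of it, over an exon of the antisense gene Igf2as, and held 2.41 CpG per 100 bp, a density reached by 4.38% of the list. The peaks at chr7:149856253-149857466 (1214 bp, score 144.55) and chr7:149857737-149858402 (666 bp, score 58.15) began 3.53 kb and 5.02 kb upstream. These 4 peaks filled 87.8% of a 6.78 kb stretch. Apart from the peak with 2.41, they held 0.601 to 0.659 CpG per 100 bp, densities reached by 56.9% to 61.6% of the list. The widest Igf2 peak held 1.18, reached by 26.2%.

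Between the peak at the gene end and the peak at the farthest upstream start lay 10213 bp with no peak of any list. This gap held 8 of the 9 annotated Igf2 transcript starts. The RefSeq starts at 149847176, 149844709 and 149843401 lay in it, at 4.45, 3.3 and 1.99 kb from the nearest Hira-null day 15 peak. From the nearest WT day 15 peak they were 85.7, 83.2 and 81.9 kb away. Just outside the window, 1 more Hira-null day 15 peak stood past the gene end at chr7:149828007-149829096 (1090 bp, score 113.04).

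**Figure D3:**
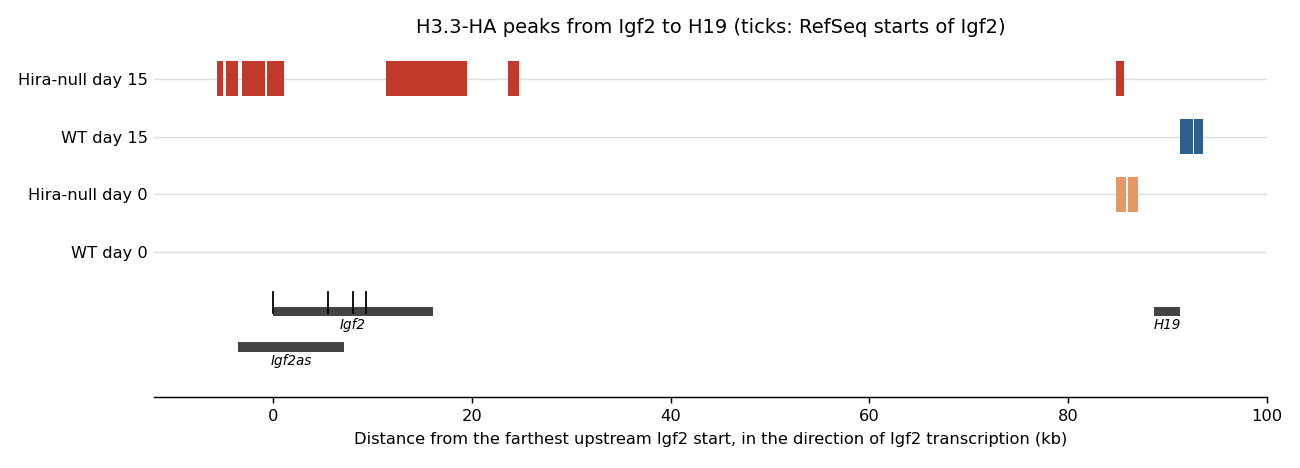
H3.3-HA peaks of the 4 lists from Igf2 to H19 by distance from the farthest upstream Igf2 start in kb, in the direction of transcription, with gene bodies below and RefSeq starts of Igf2 as ticks. Only Hira-null day 15 has peaks at Igf2, both Hira-null lists have peaks upstream of H19, and WT day 15 has 2 peaks at the H19 end.

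Upstream of H19, in its control region, peaks of Hira-null day 15 and Hira-null day 0 overlapped where neither WT list had a peak. The Hira-null day 15 peak at chr7:149767135-149767949 (815 bp, score 96.87) lay 3.09 to 3.9 kb upstream of the H19 start (chr7:149761434-149764048, minus strand). The Hira-null day 0 list had peaks at chr7:149766870-149767893 (1024 bp, score 87.12), 2.82 to 3.85 kb upstream, and at chr7:149765723-149766683 (961 bp, score 54.69), 1.68 to 2.63 kb upstream. The day 15 peak and the first of these shared 759 bp. The other such overlap in the cluster lay inside Kcnq1, where the Hira-null day 15 peak at chr7:150422713-150424452 shared 980 bp with a Hira-null day 0 peak and 0 bp with WT peaks. WT day 15 and WT day 0 had 0 peaks in the 5 kb. All 3 Hira-null scores were under 100, in lists that began at 50, and 0% of the 32-base words of these peaks occurred elsewhere in the genome. Across the whole lists, 69.2% of Hira-null day 15 peaks and 67.2% of Hira-null day 0 peaks had no WT peak of the same day. The share of places in both Hira-null lists and in neither WT list was not computed. With lists of equal length the Hira-null day 0 peaks were lost, as the lowest score kept was 149.01, so no overlap between the days remained here.

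The day 15 peak held 2.45 CpG per 100 bp, a density reached by 4.08% of the Hira-null day 15 list, and the day 0 peaks held 2.15 and 3.64, densities reached by 26.5% and 1.99% of the Hira-null day 0 list. The region as a whole held 2.36. TGCCGC, the core bound by the imprinting factor ZFP57 when methylated, was searched on both strands and matched 6 times in the region. It can overlap the CTCF core by a base. The day 15 peak held 2 of these matches and the day 0 peaks 2 and 3, and at least as many stood in 0.409% of stretches of that width centred on Hira-null day 15 peaks and in 1.87% and 0.333% of those centred on Hira-null day 0 peaks. Of RefSeq promoters, 11.6% held 1 or more.

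At H19 itself and just past its end, only WT day 15 had peaks, and WT day 0 had none, like the Hira-null lists. Across the whole list, 91.9% of WT day 15 peaks had no Hira-null day 15 peak. WT day 15 had peaks at chr7:149760168-149761493 (1326 bp, score 155.05), which overlapped the last 60 bp of H19, and at chr7:149759178-149760081 (904 bp, score 102.38), 1.35 kb past its end. Hira-null day 15 had no peak within H19 or between these and the upstream peak. WT day 15 had 2 further peaks, chr7:149745932-149746571 (score 50.86) and chr7:149747474-149748203 (score 53.47), on the Mrpl23 side of H19, and no other list had a peak there. These scores stood near the lowest of the list, 50, and both peaks were lost at a score of at least 100. With lists of equal length the lowest WT day 15 score kept was 126.16, and of the peaks in this paragraph only that with 155.05 stayed.

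Ins2, an insulin gene (chr7:149864561-149885415, minus strand as annotated), had 0 peaks in all 4 lists. Ascl2, a transcription factor gene of the placental trophoblast (chr7:150152727-150155169, minus strand), also had 0 peaks in all 4. For Ascl2 the nearest Hira-null day 15 peak was 98.6 kb from the RefSeq start, the nearest WT day 15 peak 259 kb, the nearest Hira-null day 0 peak 124 kb and the nearest WT day 0 peak 43.7 kb. With depth unknown, a gene without a peak may still carry H3.3 below the threshold of the peak caller.

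Cd81, a tetraspanin membrane protein gene (chr7:150238644-150253839, plus strand), and Tssc4 (chr7:150255154-150256998, plus strand) lie next to each other and had the same peaks. Hira-null day 15 had 1 peak at chr7:150253793-150254718 (926 bp, score 97.3), which began in the last 47 bp of Cd81 and ended 0.436 kb before Tssc4. WT day 0 had a peak over the same place at chr7:150253380-150255060 (1681 bp, score 110.35), which contained all 926 bp of the Hira-null day 15 peak. WT day 0 had another at chr7:150247948-150248970 (1023 bp, score 73.33), inside Cd81 and over a coding exon. WT day 15 and Hira-null day 0 had 0 peaks here. The stretch between Cd81 and Tssc4 was the only place in the cluster shared by Hira-null day 15 and WT day 0 and by no other list.

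Kcnq1 encodes the pore-forming subunit of a slow cardiac potassium channel (chr7:150293159-150612955, plus strand), and its long introns hold the start of Kcnq1ot1. It was the only member with a peak in all 4 lists, but with lists of equal length it had 10 peaks in Hira-null day 15, 0 in WT day 15, 0 in Hira-null day 0 and 1 in WT day 0, and with a score of at least 100 it had 5, 2, 0 and 1. There were 10 peaks and 14.8 kb covered in Hira-null day 15, 6 peaks and 6.17 kb in WT day 15, 2 peaks and 2.01 kb in Hira-null day 0, and 3 peaks and 3.66 kb in WT day 0. By covered length Kcnq1 ranked 17th of 22367 genes in Hira-null day 15, 1256th in WT day 15, 2118th in Hira-null day 0 and 1684th in WT day 0. Its window spans 333 kb, so 4.46% of it was covered in Hira-null day 15, 1.85% in WT day 15, 0.603% in Hira-null day 0 and 1.1% in WT day 0. All midpoints of these peaks were intronic.

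The 10 Hira-null day 15 peaks of Kcnq1 formed 1 block, chr7:150401724-150424452, spanning 22.7 kb with 65.2% of it under peaks. When peaks no more than 5 kb apart were joined, this block ranked 7th by number of peaks and 14th by covered length of 5769 Hira-null day 15 blocks. Its widest peak, chr7:150413155-150418106, had a width of 4952 bp and a score of 856.39, the 185th highest of the list. The other 9 peaks were 671 to 2069 bp wide, with scores from 53.69 to 276.48. The block lay 58.0 to 80.7 kb downstream of the Kcnq1ot1 start in the direction of Kcnq1ot1 transcription, that is, antisense to Kcnq1.

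WT day 15 had a smaller block over the same part of the gene, chr7:150414520-150425864, with 5 peaks in 11.3 kb and 43.2% of it covered. Its scores were 50.44 to 121.81, and the block ranked 417th by number of peaks of 16812 WT day 15 blocks. The widest Hira-null day 15 peak shared 2462 bp with WT day 15 peaks, 1010 bp with Hira-null day 0 peaks and 735 bp with WT day 0 peaks. Hira-null day 0 had 1 peak at chr7:150414376-150415385 (score 72.84) and 1 at chr7:150423473-150424468 (score 56.16). WT day 0 had 1 peak of the block, chr7:150414516-150415250 (score 57.63).

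All 4 lists overlapped at chr7:150414520-150415250, 731 bp whose centre is printed above. It was the only such stretch in the cluster. Of its 32-base words, 39.0% occurred elsewhere in the genome, up to 7474 times, against 7.99% of the words of the whole cluster region. Repeated words were also common in other peaks of the Kcnq1 block, where they made up 31.2% to 78.9% in 5 neighbouring Hira-null day 15 peaks (chr7:150403383-150411362), but 18.5% in the peak with the score of 856.39. The peaks of the block were poor in GC, from 28.8% to 40.4% in Hira-null day 15, where the median of the list was 42.1%. The part of read placement in repeats was not tested.

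**Figure D4:**
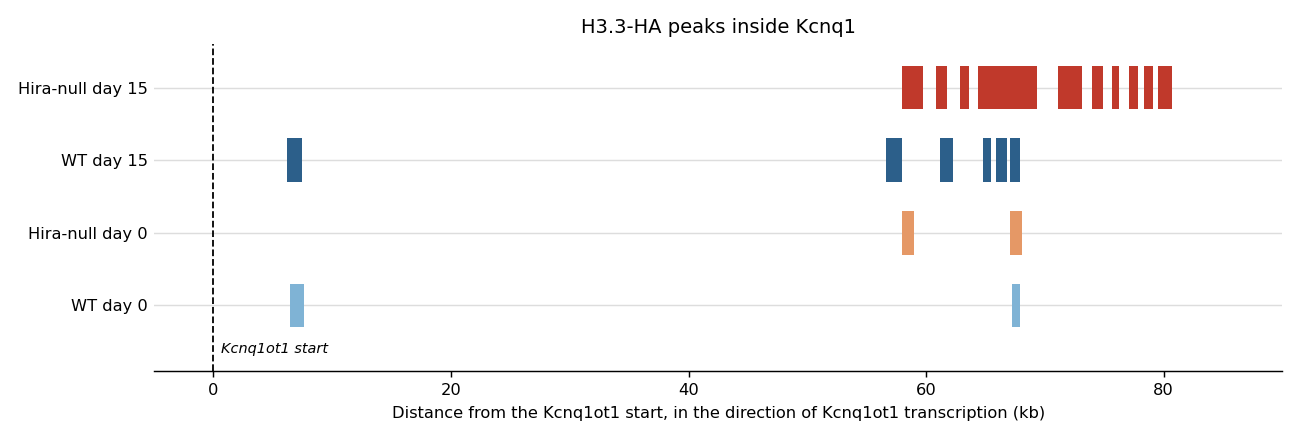
H3.3-HA peaks of the 4 lists inside Kcnq1 by distance from the Kcnq1ot1 start in kb, in the direction of Kcnq1ot1 transcription. The Hira-null day 15 block runs from 58.0 to 80.7 kb, all lists overlap near 67 kb, and only the WT lists have a peak near 7 kb.

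Nearer to the Kcnq1ot1 start the WT lists alone had peaks. WT day 15 had a peak at chr7:150474973-150476242 (1270 bp, score 112.54), 6.21 to 7.48 kb downstream of the start. WT day 0 had a peak at chr7:150474832-150475993 (1162 bp, score 103.67), 6.46 to 7.62 kb downstream. This was the only place in the cluster shared by both WT lists and by neither Hira-null list. No 32-base word of these peaks occurred elsewhere. With lists of equal length the WT day 15 peak was lost, as the lowest score kept was 126.16. The WT day 0 peak stayed, with a lowest score of 103.13, so the place was then in 1 list only. Across the whole lists, 91.9% of WT day 15 peaks and 72.7% of WT day 0 peaks lacked a Hira-null partner. A WT peak without a Hira-null peak of its day was thus the usual case. The share of places in both WT lists and in neither Hira-null list was not computed. Over the control region itself, 2 kb on each side of the Kcnq1ot1 start, all 4 lists had 0 peaks, with 0 matches to the CTCF core and 3 to TGCCGC. WT day 0 alone had 1 more Kcnq1 peak, chr7:150305425-150307191 (1767 bp, score 78.72), 12.3 kb after the Kcnq1 start.

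Cdkn1c, which encodes the cyclin-dependent kinase inhibitor p57 (chr7:150644255-150646955, minus strand), and Slc22a18, a transporter gene (chr7:150659626-150685239, plus strand), shared 1 Hira-null day 15 peak. It lay between them at chr7:150655375-150656378 (1004 bp, score 138.37), 8.42 kb upstream of Cdkn1c and 3.25 kb upstream of Slc22a18. WT day 15, Hira-null day 0 and WT day 0 had 0 peaks in both windows.

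Phlda2, a gene that restrains placental growth (chr7:150687450-150688446, minus strand), had 1 WT day 15 peak, chr7:150698319-150699361 (1043 bp, score 72.98), and 0 peaks in the other lists. Only 128 bp of this peak fell within the window, 9.87 kb upstream of Phlda2, and the peak lay 0.123 kb past the end of the neighbouring gene Nap1l4. It is thus the member call nearest to the edge of the window.

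Across the cluster, overlap between lists was limited. The 68 peaks of the 4 lists merged into 50 segments, of which 17 (26642 bp) were present only in Hira-null day 15, 11 (10649 bp) only in WT day 15, 6 only in Hira-null day 0 and 4 only in WT day 0. Both day 15 lists shared 5 segments that no day 0 list touched, and both day 0 lists shared 2.

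Of the Hira-null day 15 cluster peaks, 20 of 26 (76.9%, exact 95% interval 56.4% to 91.0%) had no WT day 15 peak, beside 69.2% in the whole list. Of the Hira-null day 0 cluster peaks, 8 of 11 (72.7%, 39.0% to 94.0%) had no WT day 0 peak, beside 67.2%. In the other direction, 13 of 22 WT day 15 cluster peaks (59.1%, 36.4% to 79.3%) had no Hira-null day 15 peak, beside 91.9% in the whole list. At day 0 it was 6 of 9 WT cluster peaks (66.7%, 29.9% to 92.5%), beside 72.7%. The intervals cover counting error only and treat neighbouring peaks as separate, and nothing is read from the day 15 shares, since the cluster was chosen on that contrast.

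Between the days, 23 of 26 Hira-null day 15 cluster peaks (88.5%, 69.8% to 97.6%) had no Hira-null day 0 peak, beside 76.5% in the whole list. For WT, 20 of 22 day 15 cluster peaks (90.9%, 70.8% to 98.9%) had no WT day 0 peak, beside 78.0%. These intervals, too, cover counting error only and treat neighbouring peaks as separate. The 23 Hira-null peaks include the Igf2 peak on which the cluster was chosen and its neighbours, so nothing is read from that share.

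Repeated sequence was counted in cluster peaks only, with no share over the whole lists and no test. Of these peaks, 5 of 11 in Hira-null day 0 had at least 50% of their 32-base words elsewhere in the genome, against 0 of 9 in WT day 0, and 3 of 26 in Hira-null day 15 against 0 of 22 in WT day 15. In Hira-null day 0 these were 3 peaks in introns of Gm6471, a peak between genes at chr7:149964738-149967579 with 98.8% of its words repeated, and a peak in Tnfrsf22. Without such peaks the cluster held 23 peaks in Hira-null day 15, 22 in WT day 15, 6 in Hira-null day 0 and 9 in WT day 0. The count of members with a peak was the same in each list.

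Of 21 other annotated genes of the cluster, 7 had a peak in Hira-null day 15, 6 in WT day 15, 6 in Hira-null day 0 and 5 in WT day 0. As shares these were 33.3%, 28.6%, 28.6% and 23.8%, beside 15.2%, 39.4%, 20.3% and 35.4% of all protein-coding genes in the same order, and with lists of equal length the counts were 7, 3, 3 and 4. The Hira-null day 15 count includes Igf2as, which has the Igf2 peaks on which the cluster was chosen. It also includes Trpm5 through the peak between Cd81 and Tssc4, and Gm14492 through the same peaks as Tnnt3. Nothing is read from that count. Near Mrpl23, a mitochondrial ribosomal protein gene, and Tnnt3, Lsp1 and Gm14492, both day 15 lists had peaks and both day 0 lists had none. The Mrpl23 window had 4.87 kb under Hira-null day 15 peaks and 4.71 kb under WT day 15 peaks. The peak between Tnni2 and Lsp1 had a score of 99.28 in Hira-null day 15 (chr7:149640108-149641022) and 252.59 in WT day 15 (chr7:149639865-149641508).

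At the far side, Tnfrsf23 and Tnfrsf22, which encode decoy death receptors, had peaks at day 0 only. The Tnfrsf23 peak had a score of 444.35 in Hira-null day 0 (chr7:150851137-150854020, 2884 bp) and 87.08 in WT day 0 (chr7:150852285-150853827, 1543 bp). The Tnfrsf22 peak had a score of 340.78 in Hira-null day 0 (chr7:150822114-150823862) and 103.52 in WT day 0 (chr7:150822278-150823370). These genes are close copies, and 37.6% to 54.4% of the words of the 4 peaks were repeated. The window of their neighbour Tnfrsf26 had 2 Hira-null day 0 peaks (2.78 kb) and 1 WT day 0 peak (1.09 kb). These were the Tnfrsf22 peaks and, in Hira-null day 0, also the peak counted for Cars (chr7:150792039-150793072, score 86.03). Trpm5 shared the peaks between Cd81 and Tssc4, 1 of Hira-null day 15 and 1 of WT day 0. Tspan32, with 2 WT day 0 peaks, Cars, with 1 Hira-null day 0 peak, Nap1l4, with 3 WT day 15 peaks, and Gm6471, with 3 Hira-null day 0 peaks, each had peaks of 1 list only.

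Of 45 other imprinted genes of the genome, 24 had a peak in Hira-null day 15, 28 in WT day 15, 20 in Hira-null day 0 and 20 in WT day 0. As shares these were 53.3%, 62.2%, 44.4% and 44.4%, beside 15.2%, 39.4%, 20.3% and 35.4% of all protein-coding genes, and with lists of equal length the counts were 24, 15, 7 and 8. At day 15, 5 had a Hira-null peak only, beside 4.10% of all protein-coding genes, and 9 a WT peak only, beside 28.3%, and 16 were covered over a greater length in Hira-null and 17 in WT. Those with the greatest length under Hira-null day 15 peaks were Airn (29.7 kb in Hira-null and 3.6 kb in WT day 15), Peg3 (22.9 and 3.96 kb), Igf2r (15.9 and 4.32 kb), Zim1 (12.1 and 1.32 kb), Ddc (11.7 and 45.4 kb), Mest (8.79 and 1.07 kb), Peg10 (5.64 and 3.95 kb), Gnas (5.63 and 2.53 kb), Copg2 (5.52 and 1.74 kb) and Slc22a2 (4.38 and 0 kb). Airn and Igf2r, Peg3 and Zim1, and Mest and Copg2 are neighbours that share peaks. These genes were ranked on the Hira-null values, so a greater length there is part of the choice.

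Igf2 was set beside the other genes of its signalling pathway. Among 23 genes, 7 had a peak in Hira-null day 15, 15 in WT day 15, 5 in Hira-null day 0 and 10 in WT day 0. As shares these were 30.4%, 65.2%, 21.7% and 43.5%, beside 15.2%, 39.4%, 20.3% and 35.4% of all protein-coding genes. With lists of equal length the counts were 7, 7, 0 and 5, so at day 15 they no longer differed. At day 15, 3 had a Hira-null peak only (Igf2 and the binding protein genes Igfbp2 and Igfbp5), beside 4.10% of all protein-coding genes, and 11 had a WT peak only, beside 28.3%. The Hira-null day 15 counts of 7 and 3 include Igf2, on whose peak the cluster was chosen, and nothing is read from the 3. The highest Hira-null day 15 score was 79.3 at Igfbp2 and 77.83 at Igfbp5, so neither had a peak with a score of at least 100. Igfbp4, another binding protein gene, had 0.97 kb in Hira-null day 15 and 2.19 kb in WT day 15. Igf2r, whose receptor clears IGF2 from the cell surface, had 15.9 kb under peaks in Hira-null day 15 and 4.32 kb in WT day 15. The insulin receptor gene Insr had 0 kb in Hira-null day 15 and 14.7 kb in WT day 15, and the adaptor gene Irs2 had 0 and 11.0 kb. The gene of the inhibitory adaptor Grb10 had 3.65 kb in Hira-null day 15 and 17.4 kb in WT day 15. The RNA-binding protein genes Igf2bp1 (3.38 kb in Hira-null and 35.2 kb in WT) and Igf2bp3 (0 and 18.2 kb) also had more under peaks in WT day 15.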

How the data were processed

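H3.3-HA was measured by native MNase ChIP-seq with an anti-HA antibody. The authors aligned the reads with Bowtie to mm9 and called peaks with MACS 1.4.2, 1 list per ChIP library. The deposited files give position and score (-10 × log10 p), and whether the input libraries served as controls is not given in the sources used here. The 4 input samples were not used, and 8 samples in all are described. Depth was unknown. Members, lists and tests were chosen with earlier results of these data known. Genes came from GENCODE M1 (NCBIM37, the same assembly as mm9), without Ctsd, Ifitm10 and Dusp8, which lay outside the region, and without Kcnq1ot1, Zfp264 and Peg13, which were not found by symbol. Named were all members, other cluster genes with a peak, and at most 10 imprinted and 10 IGF genes by Hira-null day 15 covered length. Insr, Irs2 and Igf2bp3, with 0 there, were named after their values were seen. Overlaps were computed with pandas 2.3.3 and numpy 2.4.6 and checked with bedtools 2.31.1 (0 different), and intervals with scipy 1.17.1. The code was also tested on simulated data. Words of 32 bases were counted on both strands of NCBIM37. With 1 library per condition no test was made. Alternatives were a score of at least 100, lists held to 7332 peaks, other windows and other overlaps.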

Additional observations from a re-analysis of the deposited data

Results flagged for a closer look

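At Cd81 and at Tssc4 the length under peaks differed in opposite directions at day 15 and at day 0, with Hira-null minus WT at 926 bp at day 15 and -2704 bp at day 0. The same values, 926 and -2704 bp, stand for day 15 minus day 0 in Hira-null and in WT cells, because WT day 15 and Hira-null day 0 had 0 bp at both genes. At Kcnq1, Hira-null minus WT was 8657 bp at day 15 and -1658 bp at day 0. With 1 library per condition these differences were not tested.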

How the results depend on the processing

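Of 140 alternative values for 38 results, 90 lay within 1.5 times the value reported and 50 moved further. Some of the 90 could not move. Lists of equal length do not change the Hira-null day 15 list, and a value of 0 stays at 0 under a stricter setting. For the score of at least 100, cluster peaks were 14 in Hira-null day 15, 8 in WT day 15, 3 in Hira-null day 0 and 4 in WT day 0, and covered lengths were 10.2 kb in WT day 15, 6.24 kb in Hira-null day 0 and 6.16 kb in WT day 0. Members with a peak were then 1 (WT day 15) and 0 (Hira-null day 0), other cluster genes 2 in Hira-null day 15, other imprinted genes 13 in Hira-null day 0 and 9 in WT day 0, and IGF genes 4 in Hira-null day 15, 7 in WT day 15, 2 in Hira-null day 0 and 6 in WT day 0. Cluster peaks without a partner were 12 (Hira-null) and 6 (WT) at day 15 and 2 (Hira-null) and 3 (WT) at day 0. Day 15 peaks without a day 0 peak were 14 in Hira-null and 7 in WT, and the control regions had 0 peaks in Hira-null day 15 and 0 in Hira-null day 0. For lists of equal length, which leave the Hira-null day 15 list whole, cluster peaks were 4 in WT day 15, 2 in Hira-null day 0 and 4 in WT day 0, covering 5.74, 4.63 and 6.16 kb. Members with a peak were then 0 in WT day 15, 0 in Hira-null day 0, other cluster genes 3 (WT day 15) and 3 (Hira-null day 0), other imprinted genes 15 in WT day 15, 7 in Hira-null day 0 and 8 in WT day 0, and IGF genes 7, 0 and 5 in the same order. Unshared between genotypes were 1 Hira-null peak at day 0, 1 WT peak at day 15 and 3 WT peaks at day 0, and 4 WT day 15 peaks had no day 0 partner. For gene bodies without flanks, members with a peak were 3 in Hira-null day 15 and 1 in WT day 15, Igf2 had 2 Hira-null day 15 peaks, and other cluster genes numbered 3 in Hira-null day 0. Leaving out peaks with 50% or more repeated words, an alternative chosen after seeing the data, gave 6 peaks and 7.91 kb in Hira-null day 0. All counts depend on where each list ends, and no read depth was known. The cause of the shorter Hira-null day 15 list was not tested. No library can be left out, since each condition has 1. No paired analysis was possible because each condition has 1 library and no test was made.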
